A study of Mus musculus with 34 samples.

Results

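Regions of acetylated histone H3 lysine 27 (H3K27ac) that the study's table of blood monocytes, repopulating liver macrophages and Kupffer cells lists for Kupffer cells only were examined. They were chosen by the list entry of their row, selected where it names the Kupffer cell list and no other, and they numbered 14500 of 84647 regions (17.1%). For comparison, 4250 regions were listed for repopulating liver macrophages only, 10905 for monocytes only, 5997 for repopulating liver macrophages together with Kupffer cells, and 36273 for all 3 cell types. Each region spans 2000 bp of the mouse genome (build mm10). The table does not say which assay the lists came from, so the regions count as selected on measured signal in Kupffer cells, monocytes and repopulating liver macrophages, and the contrasts of Kupffer cells with the other cells that follow are a description and not a test of it.

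The study is a set of 34 chromatin immunoprecipitation sequencing (ChIP-seq) libraries from mouse macrophages, with 2 libraries in each group, of which 22 are immunoprecipitates and 12 are inputs. H3K27ac was measured in untreated Ly6C-high monocytes from the blood of C57BL/6J mice, in the macrophages repopulating the liver (RLM) of Clec4f-cre/Rosa26iDTR mice 24 h after they received diphtheria toxin, and in untreated Kupffer cells, whose sample labels give C57BL/6J while the series' design text gives the Clec4f-Cre/DTR mice. In the toxin model the Clec4f promoter drives Cre and so restricts the toxin receptor to cells that have turned Clec4f on, and the cells that refill the emptied niche carry the same transgenes. H3K27ac was also measured in bone marrow-derived macrophages (BMDM) of C57BL/6J mice in a 4-day culture, untreated or given the Notch ligand DLL4 for 24 h. Peaks of the nuclear receptor LXR came from Kupffer cells of Clec4f-cre mice and from C57BL/6J BMDM of a 7-day culture given the synthetic LXR agonist GW3965 for 18 h, and peaks of SMAD4 and RBPJ came from Kupffer cell nuclei of Clec4f-cre mice and from untreated C57BL/6J BMDM of a 4-day culture. Nothing in the labels ties the 2 libraries of a group to different mice, and the p-values therefore cover only library-to-library spread, technical spread included.

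H3K27ac marks active promoters and enhancers, and the set of enhancers carrying it differs between macrophages of different tissues. Kupffer cells are the resident macrophages of the liver sinusoid and are known for the lectin Clec4f, the phosphatidylserine receptor Timd4 and the secreted protein Cd5l. LXR is a nuclear receptor activated by oxysterols, SMAD4 is the shared partner of the SMADs that act downstream of TGF-β and BMP receptors, and RBPJ is the DNA-binding protein through which Notch receptors act on their target genes.

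The promoters of 6 genes lying inside these regions are shown because the results below return to them. Clec4f, Timd4 and Cd5l are defining Kupffer cell genes, and Il18bp, Tmem37 and Kctd6 had promoter regions among the 8 with the highest Kupffer cell H3K27ac. Each line gives the 250 bases before and the 50 after the annotated start in the direction of the gene, from RefSeq on GRCm38.p6, at chr6:83656067-83656366 (minus strand) for Clec4f, chr11:46810549-46810848 (plus) for Timd4, chr3:87357631-87357930 (plus) for Cd5l, chr7:102018183-102018482 (minus) for Il18bp, chr1:120073731-120074030 (minus) for Tmem37 and chr14:8215998-8216297 (plus) for Kctd6. Capitals mark every match to one of the motifs searched on both strands.
Clec4f: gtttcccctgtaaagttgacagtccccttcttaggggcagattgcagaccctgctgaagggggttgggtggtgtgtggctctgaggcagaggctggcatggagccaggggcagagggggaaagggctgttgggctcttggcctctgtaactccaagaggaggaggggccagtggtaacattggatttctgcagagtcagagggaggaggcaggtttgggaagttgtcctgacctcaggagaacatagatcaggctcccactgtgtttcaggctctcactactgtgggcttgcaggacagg
Timd4: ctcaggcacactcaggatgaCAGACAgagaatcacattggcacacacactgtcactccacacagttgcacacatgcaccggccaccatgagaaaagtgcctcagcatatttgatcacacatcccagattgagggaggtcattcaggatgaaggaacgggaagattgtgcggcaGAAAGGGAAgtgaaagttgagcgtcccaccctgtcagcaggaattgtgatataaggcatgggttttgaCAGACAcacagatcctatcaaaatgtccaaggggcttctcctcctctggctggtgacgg
Cd5l: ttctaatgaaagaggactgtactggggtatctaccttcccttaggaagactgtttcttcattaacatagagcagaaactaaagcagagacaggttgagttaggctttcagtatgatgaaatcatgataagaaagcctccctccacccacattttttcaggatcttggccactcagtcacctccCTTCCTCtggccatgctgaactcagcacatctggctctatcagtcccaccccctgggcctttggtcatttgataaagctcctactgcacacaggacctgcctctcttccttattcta
Il18bp: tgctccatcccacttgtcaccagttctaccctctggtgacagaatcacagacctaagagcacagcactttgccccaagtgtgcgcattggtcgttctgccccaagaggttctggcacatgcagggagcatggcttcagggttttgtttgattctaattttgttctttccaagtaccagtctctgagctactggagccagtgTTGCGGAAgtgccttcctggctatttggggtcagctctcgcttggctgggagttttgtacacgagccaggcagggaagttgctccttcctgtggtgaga
Tmem37: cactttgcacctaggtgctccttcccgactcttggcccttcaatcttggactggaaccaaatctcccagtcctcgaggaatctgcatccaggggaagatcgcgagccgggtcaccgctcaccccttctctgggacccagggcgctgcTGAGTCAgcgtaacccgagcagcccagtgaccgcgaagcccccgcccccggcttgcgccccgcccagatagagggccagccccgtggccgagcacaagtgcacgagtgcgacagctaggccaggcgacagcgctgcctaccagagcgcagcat
Kctd6: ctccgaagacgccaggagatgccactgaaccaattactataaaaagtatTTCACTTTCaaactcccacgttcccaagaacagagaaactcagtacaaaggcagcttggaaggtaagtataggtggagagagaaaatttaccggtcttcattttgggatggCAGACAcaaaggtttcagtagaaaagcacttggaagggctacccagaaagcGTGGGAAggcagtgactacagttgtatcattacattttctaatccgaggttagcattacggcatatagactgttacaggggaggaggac
The motifs were PU.1 (GAGGAAG), AP-1 (TGANTCA), MiT/TFE (CACGTG), RBPJ (GTGGGAA), SMAD (CAGACA), IRF (GAAANNGAA), CEBP (TTGCNNAA) and the LXR DR4 element with up to 2 mismatches. The Clec4f window held no match. Timd4 had a SMAD match at each of positions 21 and 242 and an IRF match at 174, counted from the first base printed. Cd5l had a PU.1 match on the other strand at 184, Il18bp a CEBP match at 202, Tmem37 an AP-1 match at 148, and Kctd6 an IRF match on the other strand at 50, a SMAD match at 161 and an RBPJ match at 212. No matches overlapped in these windows. A match is a description and not a binding site, and the letters are common: SMAD matched in 21.0% and PU.1 in 13.6% of all 32817 promoter windows of this length.

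Promoter windows lying in regions listed for Kupffer cells only numbered 1599. They held a PU.1 match in 14.1%, an AP-1 match in 6.13% against 7.81% of all windows, and a SMAD match in 16.4% against 21.0%. CEBP matched in 8.44% against 10.8% and MiT/TFE in 8.69% against 7.15%. The 14111 windows lying in any region held PU.1 in 14.3%, AP-1 in 5.12% and SMAD in 15.7%. They held CEBP in 8.56% and MiT/TFE in 10.2%. The 339 windows of regions called higher in Kupffer cells against both other cell types held AP-1 in 10.3%, IRF in 11.8% against 8.55% of all windows and MiT/TFE in 3.54% against 7.15%. In windows lying in any region, AP-1 matched in 5.12%, IRF in 7.36% and MiT/TFE in 10.2%. Median GC content differed as well, at 55.0% in those 339 windows, 60.0% in the 1599, 60.7% in those of any region and 52.7% in all. Its part in these shares was not tested.

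H3K27ac in these regions was higher in Kupffer cells than in the other cells on average, but the regions were mixed. Levels are given as tags per 1000000 (CPM) of a library's total over the table, scaled by the trimmed mean of M-values (TMM). The median region had 1.41 and 1.16 CPM in the 2 monocyte libraries, 1.84 and 1.83 in the RLM libraries, and 4.29 and 4.16 in the Kupffer cell libraries. In bulk chromatin, fewer cells carrying a mark and less of the mark per cell cannot be told apart. The middle 80% of regions ran from 0.715 to 26.0 CPM in the first Kupffer cell library and from 0.704 to 31.3 in the second, so the list reached from a few tags to strongly acetylated regions. Regions listed for all 3 cell types had Kupffer cell medians of 9.66 and 10.0 CPM, above those of the Kupffer-only list.

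**Figure D1:**
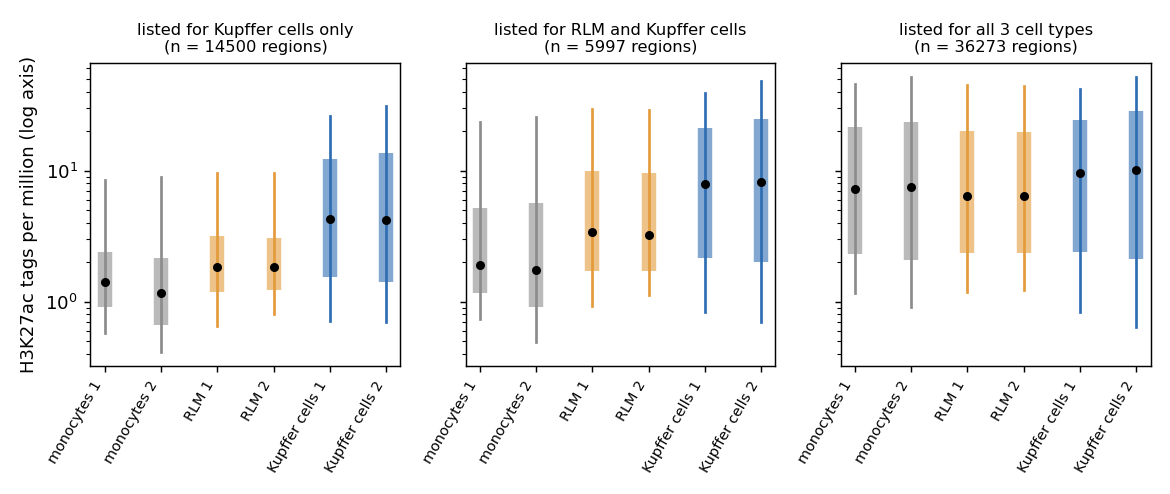
H3K27ac level (CPM, log axis) in each of the 6 libraries, for regions listed for Kupffer cells only (n = 14500), for RLM and Kupffer cells (n = 5997) and for all 3 cell types (n = 36273). Points are medians, thick bars the middle 50% and thin lines the middle 80% of regions. In the left panel the Kupffer cell medians are 4.29 and 4.16 and the other 4 lie between 1.16 and 1.84.

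Agreement between the list and the tag counts was partial. A region was called where the edgeR quasi-likelihood test gave a Benjamini-Hochberg adjusted p under 0.05 over all tested regions and the fold was at least 2. Of the 14500 regions, 14076 had enough tags to be tested and 424 did not. Kupffer cells were called higher against RLM in 6252 (44.4% of tested; 22.3% over all regions tested) and against monocytes in 7261 (51.6%; 24.9% over all). They were called lower against RLM in 476 (3.38%; 13.9% over all) and against monocytes in 381 (2.71%; 17.7% over all). These counts were part of what chose the regions and nothing is read from them. The count called lower against RLM was 150 without the second Kupffer cell library, and that against monocytes was 250.

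A stronger core and a weaker remainder could be described within the list. Kupffer cells were called higher against both other cell types in 5777 regions (39.8%), and both Kupffer cell libraries lay above all 4 others in 7983 (55.1%). No share over all regions is given beside counts called against both, here or below. Those counts rest on the contrasts that chose the list, so nothing is read from them. The mean level was at least 4 times that of RLM and of monocytes in 3286 (22.7%). In contrast, 6764 regions (46.6%) were called higher against neither, and the mean Kupffer cell level was no higher than that of RLM or of monocytes in 4834 (33.3%). Of all 14500, 2319 had under 1 CPM in Kupffer cells and 4401 had at least 10 CPM. A large share of the listed regions thus did not have more H3K27ac tags in Kupffer cells.

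**Figure D2:**
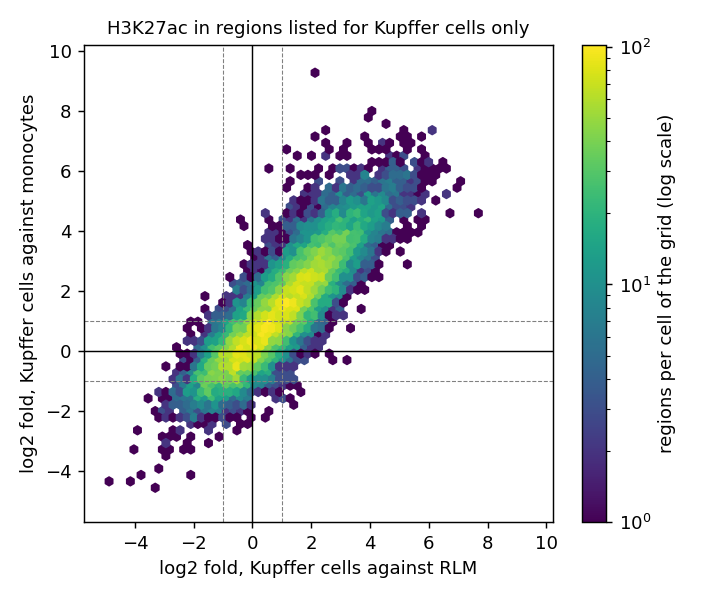
Log2 fold of H3K27ac in Kupffer cells against RLM (x axis) and against monocytes (y axis) for the 14076 tested regions listed for Kupffer cells only, shaded by the number of regions per cell of the grid (log scale). Dashed lines mark a fold of 2 in either direction. Regions spread from a dense group around 0 on both axes to the upper right, where Kupffer cells are higher against both.

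The edges of the list showed how far it reached. Among regions with the strongest signal outside Kupffer cells, the promoter of Ubn1, which encodes a subunit of a histone chaperone complex, had 169 and 175 CPM in monocytes, 119.8 and 114.6 in RLM, and 60.3 and 76.9 in Kupffer cells. An intron of Tra2a, a splicing regulator gene, had 184 and 156 CPM in monocytes, 165 and 158 in RLM, and 67.7 and 97.7 in Kupffer cells. Both were listed for Kupffer cells only although every monocyte and RLM library lay above both Kupffer cell libraries. Both also overlapped a region of another list. At the other edge, the region at Mast4 had 1 tag in the first Kupffer cell library and 0 in the second, and the region near Rtn4 had 0 and 1.

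Overlap with neighbouring listed regions went with part of this. Of the 14500 regions, 5087 (35.1%) overlapped a region of another list, 2402 overlapped only other Kupffer-only regions, and 7011 (48.4%) overlapped none, so tags and factor peaks in overlapping regions were counted more than once. Median Kupffer cell levels were 13.04 CPM, 6.82 CPM and 1.78 CPM in these 3 classes. The corresponding RLM medians were 4.06, 1.55 and 1.49 CPM. Regions that overlapped a region of another list were the strongest in both cell types, and isolated regions were weak in both.

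H3K27ac at the defining genes of Kupffer cells was highest in the Kupffer cell libraries. Summed over the regions nearest to Clec4f, Timd4, Vsig4, Cd5l, Marco and Spic, H3K27ac was 68.3 and 55.5 CPM in monocytes, 187 and 193 in RLM, and 1102 and 1295 in Kupffer cells. Of these genes 5 had regions listed for Kupffer cells only, and Vsig4 had none. Marker genes of other cells moved as well: 4 endothelial genes summed to 155 and 173 CPM in Kupffer cells against 73.9 to 95.6 in the other libraries, and 3 hepatocyte genes summed to 40.5 and 45.8 against 15.3 to 18.8. That rise lay in 1 hepatocyte gene, since Alb had 5.25 and 4.52 CPM in Kupffer cells against 3.47 to 6.91 elsewhere, and Apoa1 5.48 and 5.69 against 6.50 to 10.98. Of the endothelial genes Stab2, a scavenger receptor of sinusoidal endothelium, had 66.6 and 65.3 CPM in Kupffer cells and 8.34 to 12.7 elsewhere. Pecam1 had 79.3 and 99.8 CPM in Kupffer cells and 41.2 to 64.1 elsewhere. In contrast, Kdr (7.03 and 6.98) and Clec4g (1.91 and 0.997) were lowest in Kupffer cells. Monocyte markers summed to 382 and 388 CPM in monocytes, 403 and 389 in RLM, and 180.3 and 204 in Kupffer cells. Neutrophil markers summed to 168 and 238 CPM in Kupffer cells against 71.6 to 140.4 elsewhere. That rise lay in Csf3r, with 163 and 232 CPM in Kupffer cells against 64.0 to 130 elsewhere. Cxcr2 was lowest in Kupffer cells (2.03 and 2.29 against 4.88 to 8.17), and Retnlg overlapped (3.22 and 3.93 against 1.82 to 4.07). Cd3e, the one lymphocyte marker with a region, had at most 1.45 CPM, and the 3 stellate cell markers had no region. The part of other cells in the results was not tested.

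At Clec4f, all 6 Kupffer-only regions were called higher in Kupffer cells against both other cell types. The promoter region had 0.496 and 0.578 CPM in monocytes, 1.31 and 1.22 in RLM, and 23.7 and 24.99 in Kupffer cells. A region 19988 bp downstream of the start had 0.744 and 0.495 CPM in monocytes, 1.18 and 2.03 in RLM, and 32.2 and 42.3 in Kupffer cells. RLM levels thus stayed far below those of Kupffer cells at the locus whose promoter drives the Cre of the model. RLM were nevertheless called higher than monocytes at this distal region (log2 fold 1.39, adjusted p = 0.0342) and at the one 24122 bp from the start (2.07, adjusted p = 0.00169), from levels of at most 0.744 CPM in monocytes. The promoter region did not pass (1.22, adjusted p = 0.103). The region at 19521 bp, which overlaps the one at 19988 bp and holds the same factor peaks, did not pass either (0.468, adjusted p = 0.574). Those at 21886 bp (-0.0244, adjusted p = 0.986) and 18252 bp (0.698, adjusted p = 0.332) also did not. The region at 19988 bp also had strong factor peaks in Kupffer cells, with an LXR signal of 141.8 and 59.8, a SMAD4 signal of 280.9 and 139.1 and an RBPJ signal of 11.3 and 10.4 tags per 10000000 in the 2 libraries. No LXR or SMAD4 peak of BMDM lay in the Clec4f regions.

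Timd4 was covered only by regions of this list: all 18 regions nearest to it were Kupffer-only, and 13 were called higher against both other cell types. The promoter region, whose sequence is given above, had 1.32 and 0.165 CPM in monocytes, 1.18 and 0.711 in RLM, and 45.8 and 55.8 in Kupffer cells. The intron region 1852 bp inside the gene had 1.24 and 0.165 CPM in monocytes, 1.71 and 1.02 in RLM, and 61.4 and 80.2 in Kupffer cells. The Kupffer cell libraries did not overlap the others at either region. LXR peaks lay in 14 of the 18 regions in both Kupffer cell libraries, SMAD4 peaks in 5 and RBPJ peaks in 2, and BMDM had no peak of the 3 factors in any of them.

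**Figure D3:**
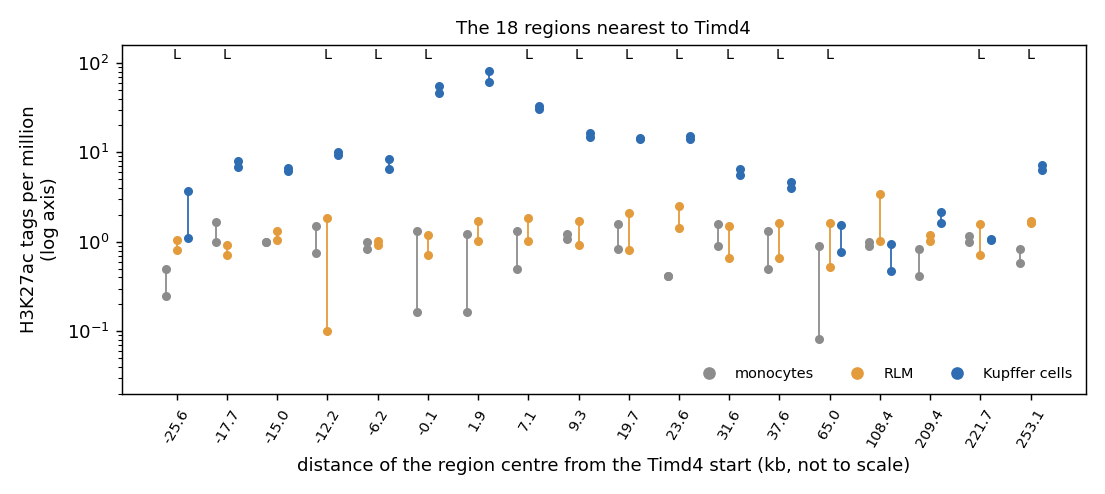
H3K27ac (CPM, log axis) in the 18 regions nearest to Timd4, ordered by distance of the region centre from the start of the gene. Joined points are the 2 libraries of monocytes (grey), RLM (orange) and Kupffer cells (blue), and L marks an LXR peak in both Kupffer cell libraries. Kupffer cell points reach 45.8 to 80.2 at the promoter and the nearest intron region, and they come near the other cells at 4 of the 5 regions farthest downstream.

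Cd5l, Marco and Spic differed in how RLM stood. The promoter region of Cd5l, which encodes a secreted inhibitor of apoptosis, had 1.49 and 1.57 CPM in monocytes, 1.97 and 2.44 in RLM, and 63.4 and 85.0 in Kupffer cells. A region at -20623 bp from the Cd5l start had 2.23 and 3.30 CPM in monocytes, 10.5 and 13.6 in RLM, and 38.8 and 52.6 in Kupffer cells, and RLM rose over monocytes there by 2.13 on the log2 scale (adjusted p = 3.37e-08). At Marco, a scavenger receptor gene, the region at -27739 bp from the start had 0.909 and 0.908 CPM in monocytes, 2.23 and 1.63 in RLM, and 26.2 and 20.4 in Kupffer cells. The Spic promoter region, at the gene of a transcription factor of iron-recycling macrophages, had 1.41 and 0.330 CPM in monocytes, 18.7 and 17.6 in RLM, and 39.5 and 44.6 in Kupffer cells. RLM thus lay between the other cells at Spic and at the distal Cd5l region, and near monocytes at the Cd5l promoter and at this Marco region. Among the other Kupffer-only Marco regions, RLM were called higher than monocytes at -12702 bp (log2 fold 2.135, adjusted p = 0.00097) and at 54180 bp (2.14, adjusted p = 0.00381). The rest did not pass.

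The regions with the highest Kupffer cell H3K27ac fell into those that were high in every cell type and those that were not. The highest of all lay on a satellite repeat nearest to Lrrc4c, with 10815 and 9788 CPM in monocytes, 21096 and 21339.6 in RLM, and 5349 and 4824 in Kupffer cells; 7 of the 14500 regions were annotated as satellite. An intron of Btaf1, a TATA-binding protein regulator gene, had 127 and 196 CPM in monocytes, 86.4 and 94.6 in RLM, and 135 and 146 in Kupffer cells. The region between genes near Ubb, a ubiquitin gene, likewise overlapped between the cell types, at 82.3 and 143 CPM in monocytes and 81.2 and 126 in Kupffer cells. The Lrrc4c, Btaf1 and Ubb regions each overlapped a region of another list. So did those at Ptprm, Pik3ap1, Tmem37, Il18bp, Kctd6, Mpeg1, Txnrd1 and Bhlhe40, named below.

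Other strong regions were low in monocytes and intermediate or low in RLM. The intron region of Ptprm, a receptor tyrosine phosphatase gene, had 1.07 and 2.06 CPM in monocytes, 0.657 and 1.42 in RLM, and 89.9 and 114 in Kupffer cells, and held no peak centre of any of the 3 factors. At Pik3ap1, which encodes an adaptor of phosphoinositide 3-kinase, an intron region had 4.38 and 2.56 CPM in monocytes, 34.6 and 39.3 in RLM, and 94.7 and 122 in Kupffer cells. The Tmem37 promoter region had 2.56 and 2.64 CPM in monocytes, 16.8 and 21.8 in RLM, and 86.7 and 120.1 in Kupffer cells. At these 3 genes the Kupffer cell libraries stood above all others, and the RLM libraries stood above monocytes at Pik3ap1 and Tmem37 but not at Ptprm. The Il18bp promoter region, at the gene of the interleukin-18 binding protein, had 3.55 and 4.87 CPM in monocytes, 17.7 and 14.1 in RLM, and 80.8 and 109 in Kupffer cells. The Kctd6 promoter region had 8.02 and 7.84 CPM in monocytes, 20.8 and 27.5 in RLM, and 79.5 and 118 in Kupffer cells.

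Some of the strongest regions had as much H3K27ac in RLM as in Kupffer cells. At Mpeg1, the gene of the pore-forming protein perforin-2 of macrophages, H3K27ac was 16.4 and 19.7 CPM in monocytes, 122 and 136 in RLM, and 88.6 and 131 in Kupffer cells. The promoter region of Txnrd1, a thioredoxin reductase gene, had 53.5 and 58.4 CPM in monocytes, 127 and 121.5 in RLM, and 96.8 and 125 in Kupffer cells. The Bhlhe40 promoter region, at a transcription factor gene, had 34.1 and 47.6 CPM in monocytes, 103 and 93.0 in RLM, and 89.9 and 124 in Kupffer cells. RLM and Kupffer cells overlapped at all 3 genes.

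Most of these regions lay away from promoters. By the authors' annotation 963 (6.64%) were at promoters, against 18.0% of all regions and 31.4% of those listed for all 3 cell types. Monocyte-only regions (6.83%) and RLM-only regions (9.48%) were also seldom at promoters. Introns held 6999 (48.3%) and intergenic sequence 5679 (39.2%). The median distance to the nearest annotated start was 20249.5 bp, against 10362.5 bp for all regions and 4228 bp for those listed for all 3 cell types, and 14.3% lay beyond 100 kb against 7.64% of all regions. Long terminal repeats were annotated at 9.55%, against 6.92% of all regions and 9.13% of monocyte-only regions. Among regions that overlapped no other region, 3.31% were at promoters.

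Of 17205 genes that were the nearest gene of a region within 100 kb, 6108 (35.5%) were so for a Kupffer-only region. At any distance 6468 genes were nearest to a Kupffer-only region, 3409 of them to 1 and 674 to at least 5. A nearest gene is an address and no evidence of action on that gene. Ptprm had the most, with 29 of its 30 regions on the list, a median Kupffer cell level of 16.0 CPM against 1.28 in RLM and 1.16 in monocytes, and LXR peaks in both Kupffer cell libraries at 20. Wdfy3, which encodes a scaffold protein of selective autophagy, had 23 of 36 regions on the list, all 23 called higher against both other cell types, with medians of 24.5 CPM in Kupffer cells and 2.26 in RLM. Sema6d, a semaphorin gene, had 23 of 37 with medians of 12.1 and 1.55 CPM. Thrb, the gene of a thyroid hormone receptor, had 25 of 34 and weaker signal, with medians of 3.93 and 1.71 CPM. Plpp3, a lipid phosphate phosphatase gene, had 22 of 34, Frmd4a 18 of 38, Rasgef1b 18 of 53 and Cln8 18 of 33. At Pisd-ps3, on an unplaced contig, 18 of 96 regions were on the list, and the order was turned, with medians of 25.7 CPM in RLM and 10.1 in Kupffer cells.

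Gene groups differed in how much of their surroundings the list covered. Of all regions within 100 kb of a gene 15.9% were Kupffer-only, and the shares below are descriptions beside that figure. Of 30 Kupffer cell identity genes 27 had a Kupffer-only region, and 153 of the 287 regions nearest to them (53.3%) were on the list. Their median levels were 16.4 CPM in Kupffer cells, 1.53 in RLM and 0.909 in monocytes. Paqr9, a gene of the progestin and adipoQ receptor family, had 12 of its 13 regions on the list, and the strongest had 1.57 and 0.743 CPM in monocytes, 0.263 and 0.508 in RLM, and 54.7 and 62.1 in Kupffer cells. Scavenger receptor genes had 73 of 183 regions on the list (39.9%), among them 8 of the 9 at Stab2.

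Genes known as LXR targets had 56 of 203 regions on the list (27.6%), with a Kupffer cell median of 20.6 CPM. At Scd1, the stearoyl-CoA desaturase gene, 7 of 11 regions were Kupffer-only, and the promoter region had 0.248 and 1.73 CPM in monocytes, 2.63 and 3.66 in RLM, and 27.9 and 29.9 in Kupffer cells. Iron and heme genes had 25 of 114 regions on the list (21.9%), with a Kupffer cell median of 20.7 CPM. Slc40a1, the gene of the iron exporter ferroportin, had 7 of 13, and its strongest region had 0.909 and 0.908 CPM in monocytes, 6.04 and 6.70 in RLM, and 29.0 and 42.4 in Kupffer cells. Kupffer cells stood above all other libraries at both genes.

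The remaining groups are given in turn. TGF-β and BMP genes had 35 of 265 regions on the list (13.2%), Notch genes 17 of 125 (13.6%), macrophage transcription factor genes 59 of 394 (15.0%), complement genes 11 of 81 (13.6%) and NF-κB target genes 34 of 219 (15.5%). Genes of antigen presentation on class II molecules had 6 of 90 (6.67%) and monocyte genes 12 of 119 (10.1%). Within the transcription factor list Rxra, the obligate partner of LXR, had 11 of 26 regions on the list, 10 of them called higher against both other cell types. The strongest Rxra region had 1.24 and 0.413 CPM in monocytes, 2.36 and 0.711 in RLM, and 31.7 and 38.4 in Kupffer cells. Of other cell types, hepatocyte genes had 3 of 12 regions on the list, none of them called higher against both, and endothelial genes 18 of 46 (39.1%), with 6 called.

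Factor peaks were read from libraries that the list did not use. In Kupffer cells, LXR peak centres lay in 61.4% of the Kupffer-only regions in the first library and 47.9% in the second, and in 5897 (40.7%) in both. Over all regions of the table these shares were 53.9%, 47.9% and 40.3%, so the share in both libraries was near that background. In BMDM the LXR shares were 30.9% and 23.6%, against 46.2% over all regions in the first. SMAD4 peak centres lay in 49.4% and 31.6% in Kupffer cells and in 22.3% and 17.4% in BMDM. RBPJ stood the other way, at 15.1% and 12.0% in Kupffer cells and 48.1% and 47.4% in BMDM. In both Kupffer cell libraries SMAD4 lay in 26.7% against 34.7% of all regions, and RBPJ in 6.03% against 10.6%, both below the table as a whole. The libraries of the 2 cell types did not overlap for any factor, and the difference between Kupffer cells and BMDM was 27.4 percentage points for LXR (54.7 ± 9.59 against 27.2 ± 5.19, SD, n = 2 each), 20.6 for SMAD4 (40.5 ± 12.6 against 19.9 ± 3.51) and -34.2 for RBPJ (13.6 ± 2.14 against 47.7 ± 0.478). With 2 libraries against 2 that do not overlap, the exact two-sided permutation p can only be 0.333, so the test adds nothing to these values.

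Peak numbers differed between libraries. The LXR share of 61.4% came from the first Kupffer cell library with 41755 peaks, and that of 30.9% from the first BMDM library with 42233. The part of peak number in the shares was not tested. RBPJ lists held 13394 and 11277 peaks in Kupffer cells and 80480 and 78976 in BMDM. The LXR lists held 41755 and 69824 peaks in Kupffer cells and 42233 and 30354 in BMDM. The second Kupffer cell LXR library stood apart, with 43.0% of its peaks in any region of the H3K27ac table against 68.7% to 93.7% in the other 11 libraries, and its peaks were called against an input whose name gives another diet than the immunoprecipitate's. As a share of the peaks themselves, 21.9% of LXR peaks in the first Kupffer cell library and 9.88% in the second lay in Kupffer-only regions, against 10.97% and 11.4% in BMDM. For RBPJ the shares were 14.9% and 14.4% in Kupffer cells against 9.57% and 9.55% in BMDM, and for SMAD4 19.9% and 17.9% against 9.27% and 9.12%. Antibody, agonist, culture time and genotype also differed between some of these groups, and their parts cannot be told apart.

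**Figure D4:**
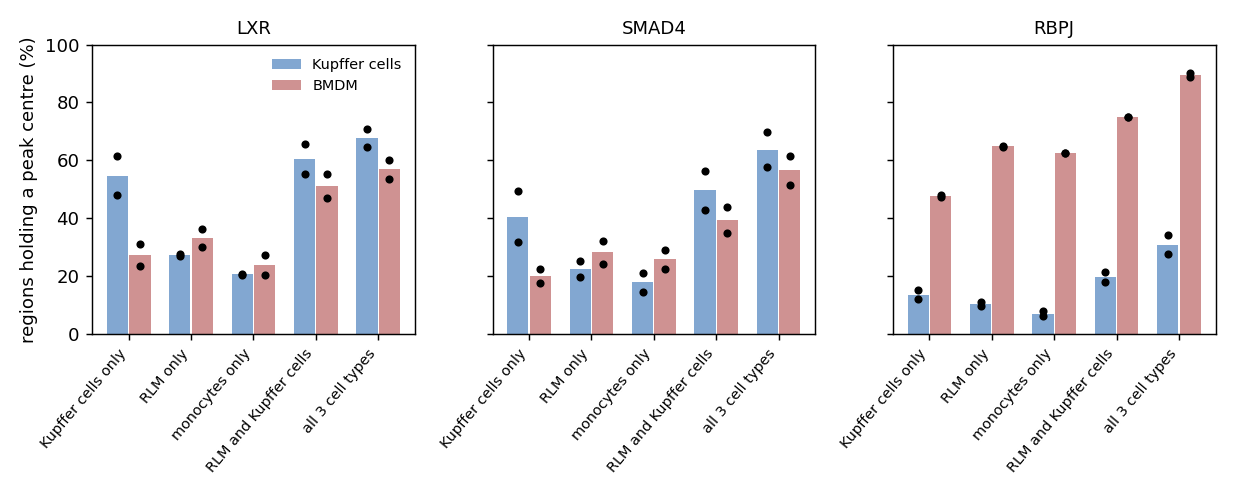
Share of regions (%) that hold the centre of an LXR, SMAD4 or RBPJ peak in Kupffer cells (blue) and BMDM (red), for 5 lists of regions. Bars are means and points the 2 libraries. For Kupffer-only regions the Kupffer cell points lie above the BMDM points for LXR and SMAD4 and below them for RBPJ.

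By the mean of the 2 libraries, the order of the 2 cell types for LXR and SMAD4 was turned in the RLM-only and monocyte-only lists. The libraries overlapped for SMAD4 in the RLM-only list and for LXR in the monocyte-only list. RBPJ was lower in Kupffer cells in every list. In regions listed for RLM only, LXR peak centres lay in 27.5% and 26.8% in Kupffer cells against 36.2% and 29.9% in BMDM, and SMAD4 in 25.2% and 19.8% against 32.2% and 24.1%. Monocyte-only regions had LXR in 20.7% and 20.4% against 27.4% and 20.4%, and SMAD4 in 21.1% and 14.5% against 29.1% and 22.4%. In regions listed for all 3 cell types the order was that of the Kupffer-only list, and LXR lay in 70.7% and 64.7% in Kupffer cells against 60.1% and 53.7% in BMDM, SMAD4 in 69.9% and 57.5% against 61.6% and 51.6%, and RBPJ in 34.1% and 27.5% against 90.2% and 88.9%. Regions shared by all cell types therefore held more peaks of each factor in either cell type than the Kupffer-only regions did. The median offset of Kupffer cell LXR peaks from the region centre was 53 and 129 bp, near the 51 and 99 bp over all regions, and 404.5 and 419 bp in RLM-only regions. RBPJ peaks of Kupffer cells lay 322 and 315 bp from the centres of the Kupffer-only regions, against 60 and 62 bp over all regions.

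The factors met in part of the regions. With a peak required in both Kupffer cell libraries, 7636 regions (52.7%) had none of the 3 factors, 2779 (19.2%) had LXR alone, 844 (5.82%) SMAD4 alone, 2366 (16.3%) LXR and SMAD4, and 611 (4.21%) all 3. Over all regions the shares were 51.7%, 11.9%, 6.48%, 19.4% and 8.08%, so the share with LXR alone was above the table's and those with LXR and SMAD4 or with all 3 below it. Median Kupffer cell H3K27ac was 2.04 CPM without a factor, 5.41 with LXR alone, 7.29 with SMAD4 alone, 14.8 with LXR and SMAD4, and 20.8 with all 3. Levels in RLM were 1.62, 1.79, 2.17, 2.54 and 5.10 CPM in the same classes. Of the 5897 regions with LXR in both Kupffer cell libraries, 2858 (48.5%) had no LXR peak in either BMDM library, against 22.6% among all regions. For SMAD4 the share was 50.8% against 20.5% of all regions, and for RBPJ 20.3% against 3.54%. RBPJ in both BMDM libraries and in neither Kupffer cell library was found at 4064 regions (28.0%), below the 42.7% of all regions.

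Factor peaks became more frequent with H3K27ac. Regions were cut into 4 groups of like size by mean Kupffer cell level. In the lowest group (0.0293 to 1.48 CPM) LXR lay in 12.4% in both Kupffer cell libraries, and in the following groups in 33.7%, 49.8% and 66.9%. SMAD4 went from 5.07% through 15.3% and 31.3% to 55.1%, and RBPJ from 1.60% to 13.2%. In BMDM the shares went from 6.89% to 34.6% for LXR, from 2.92% to 26.9% for SMAD4 and from 26.4% to 57.4% for RBPJ. The highest group (12.9 to 5087 CPM) also held more overlap with other lists, at 70.7% against 10.0% in the lowest. Among regions that overlapped no other region, LXR lay in 29.4%, SMAD4 in 13.8% and RBPJ in 2.67% in both Kupffer cell libraries.

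**Figure D5:**
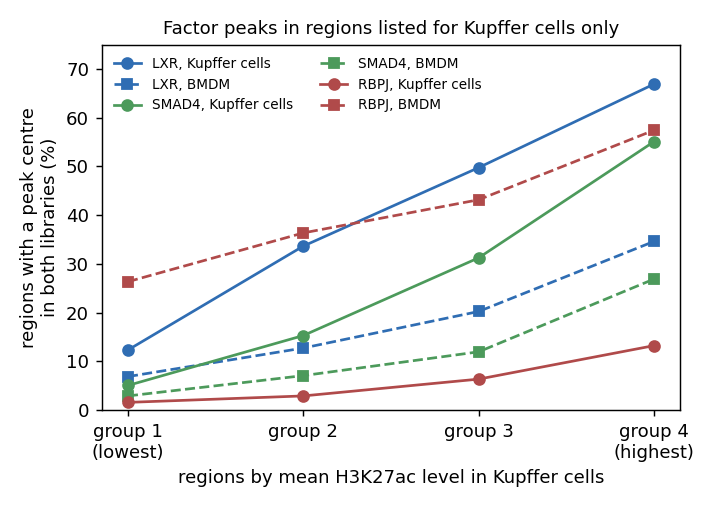
Share of Kupffer-only regions (%) with a peak centre in both libraries of Kupffer cells (solid lines) or BMDM (dashed lines), by group of mean H3K27ac level in Kupffer cells. LXR in Kupffer cells goes from 12.4% in the lowest group to 66.9% in the highest, and RBPJ in BMDM from 26.4% to 57.4%.

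The strongest regions holding all 3 factors in both Kupffer cell libraries lay at genes of several kinds. At Nfkbia, the gene of an NF-κB inhibitor, an exon region had 9.17 and 9.33 CPM in monocytes, 55.6 and 60.3 in RLM, and 80.0 and 103 in Kupffer cells, with a SMAD4 signal of 430.8 and 318.2 tags per 10000000. A region 91703 bp from Utp6, isolated from other listed regions, had 1.65 and 0.908 CPM in monocytes, 3.42 and 2.54 in RLM, and 70.0 and 112 in Kupffer cells. An intron of Kif21b, a kinesin gene, had 8.10 and 5.70 CPM in monocytes, 8.93 and 8.94 in RLM, and 74.9 and 101 in Kupffer cells. RLM were called higher than monocytes at Nfkbia (log2 fold 2.65 ± 0.22, adjusted p = 6.14e-16) and Utp6 (1.19 ± 0.39, adjusted p = 0.0166), and the Kif21b region did not pass (0.37 ± 0.26, adjusted p = 0.329). Others in the same class also had high monocyte levels, as at Lyn, a Src-family kinase gene, with 56.5 to 59.4 CPM in monocytes, 69.1 to 70.9 in RLM and 70.9 to 93.5 in Kupffer cells, and at Birc2, whose libraries overlapped between all 3 cell types. Dusp1, the gene of a MAP kinase phosphatase, was lower in RLM than in monocytes by less than 2-fold (log2 fold -0.84, adjusted p = 0.00111), with 63.5 and 60.2 CPM in monocytes, 31.4 and 37.4 in RLM, and 70.2 and 106 in Kupffer cells.

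The comparison of RLM with monocytes asks how the mark stood at these regions in cells that refill the niche 24 h after toxin, relative to circulating monocytes. The list required that a region be absent from both other lists, and this choice bears on the levels in RLM and monocytes. It may also bear on the direction between them, since those lists can differ in reach. The RLM libraries held 7.37 and 9.47 M tags in regions and the monocyte libraries 11.6 and 12.3 M. The part of the choice in the shares below was not tested. RLM were higher in 1671 of the 14076 tested regions (11.9%; 8.57% over all regions tested) and lower in 336 (2.39%; 9.14% over all), by edgeR's quasi-likelihood test with Benjamini-Hochberg adjustment. The median log2 fold was 0.42, against 0.07 over all regions. Most of the regions therefore did not pass, and of those that did most were higher in RLM.

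The other lists gave other shares. In regions shared by RLM and Kupffer cells 26.2% were higher and 2.38% lower, in RLM-only regions 10.9% and 2.83%, in monocyte-only regions 2.15% and 13.6%, and in regions of all 3 cell types 7.51% and 11.2%. Within the Kupffer-only list the share higher was 23.4% in the group with the highest Kupffer cell level, of 4 by that level, and 3.53% in the lowest, and the share lower 4.17% and 0.562%. The median log2 fold did not follow, at 0.41 in the highest and 0.45 in the lowest group. The share higher was 15.5% with LXR, 16.6% with SMAD4 and 17.5% with RBPJ in both Kupffer cell libraries, and 8.27% in the 3433 regions without a peak of any factor in any Kupffer cell library. The shares lower were 3.33%, 4.02%, 4.49% and 1.20%, and the median log2 folds 0.41, 0.38, 0.37 and 0.44, so the shift itself was no larger with a factor peak. Regions that overlapped no other had 7.91% higher and 0.692% lower.

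Values for the regions with large RLM gains follow. Those at Tgm2, Itga9, Id3, Adrb1, Cd38 and Abca1 each overlapped a region of another list. An intron of Tgm2, the transglutaminase 2 gene, had 1.16 and 0.495 CPM in monocytes, 42.0 and 46.5 in RLM, and 78.6 and 104 in Kupffer cells, and RLM rose over monocytes by 5.73 ± 0.31 on the log2 scale (SE, adjusted p = 6.64e-25; 6.38 without the first monocyte library). The 3′ UTR region of Id3, a target of BMP signalling that restrains basic helix-loop-helix factors, had 1.07 and 0.743 CPM in monocytes, 27.3 and 31.0 in RLM, and 70.1 and 92.2 in Kupffer cells (log2 fold 4.99 ± 0.31, adjusted p = 5.72e-22). An intron of Abca1, the cholesterol efflux transporter and a known LXR target, had 2.89 and 3.39 CPM in monocytes, 82.2 and 91.9 in RLM, and 57.0 and 77.5 in Kupffer cells (log2 fold 4.79 ± 0.26, adjusted p = 1.88e-25). RLM libraries stood above monocytes at all 3 genes, and above both Kupffer cell libraries at Abca1. The Abca1 region held LXR peaks in all 4 libraries, with a signal of 172.4 and 84.7 tags per 10000000 in Kupffer cells.

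Itga9, an integrin subunit gene, rose by 5.60 on the log2 scale (adjusted p = 3.31e-24), and Cd38, an NAD-consuming ectoenzyme gene, by 4.80 (adjusted p = 4.59e-18; 6.42 without the first monocyte library and 4.03 without the second). The region at Adrb1, the β1-adrenergic receptor gene, had 0.579 and 0 CPM in monocytes and 8.15 and 10.7 in RLM, a fitted log2 rise of 4.98 (adjusted p = 1.39e-13) that was 4.00 without the second monocyte library. Without the first, the remaining monocyte library had no tags and the fold is not given. Among the promoters printed above, Tmem37 rose by 2.89 ± 0.27 (adjusted p = 3.67e-14), Il18bp by 1.91 ± 0.26 (1.22e-08) and Kctd6 by 1.61 ± 0.24 (1.05e-07). The Spic promoter region rose by 4.37 (adjusted p = 2.50e-16), and Pik3ap1 and Mpeg1 by 3.41 and 2.83. The Timd4 intron region had a log2 fold of 0.91 ± 0.54 (adjusted p = 0.234), the Cd5l promoter region 0.54 ± 0.39 (0.348) and the Ptprm region -0.53 ± 0.45 (0.435), and these 3 did not pass. A fold at levels near 1 CPM in monocytes has few tags behind it. At Cd38 it moved by more than its SE of 0.35 when 1 monocyte library was left out.

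A few regions went the other way. A region at -32434 bp from the Susd2 start had 21.0 and 32.2 CPM in monocytes, 2.23 in each RLM library, and 18.6 and 25.9 in Kupffer cells. RLM fell there by 3.57 on the log2 scale (adjusted p = 9.24e-15). At Tcf7l1, a transcription factor gene of the Wnt pathway, H3K27ac was 1.98 and 1.16 CPM in monocytes, 0.131 and 0.203 in RLM, and 33.1 and 40.3 in Kupffer cells (log2 fold -3.11, adjusted p = 0.000301). Near Cd93, a C-type lectin receptor gene, it was 17.2 and 13.3 CPM in monocytes, 1.97 and 1.63 in RLM, and 5.13 and 4.16 in Kupffer cells (log2 fold -3.09, adjusted p = 2.43e-10). RLM were the lowest of the 3 cell types at each. Regions at Abcc4 and Phf19 fell by 2.72 and 2.71. The regions at Susd2, Cd93, Abcc4 and Phf19 overlapped a region of another list, and those at Tcf7l1 and Bach2 did not. The call at Bach2 (log2 fold -3.13, adjusted p = 0.0297) was lost with DESeq2, without the second Kupffer cell library and without the first RLM library, where the log2 fold was -2.35. Without the second RLM library, the one left had no tags there.

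Group by group, RLM calls in the Kupffer-only regions were mostly gains, to be read beside 8.57% higher and 9.14% lower over all regions tested and 11.9% and 2.39% in the list as a whole. Of 151 tested regions of Kupffer cell identity genes 39 (25.8%) were higher and 1, at Folr2, lower. Of 56 regions of LXR target genes 25 (44.6%) were higher, with a median log2 fold of 1.08. These genes were Abca1, Abcg1, Cd5l, Lpl, Mertk, Mylip, Nr1h3, Pltp, Rnf145, Scd1, Scd2 and Tgm2. At Rnf145, a sterol-responsive ubiquitin ligase gene, H3K27ac was 2.81 and 4.87 CPM in monocytes, 23.6 and 21.5 in RLM, and 50.3 and 61.2 in Kupffer cells. Of 32 TGF-β and BMP regions 11 were higher, at Ctgf, Id2, Id3, Rgs1, Skil, Smad6, Tgfbr1 and Tgif1. At Skil, which encodes a SMAD co-repressor, it was 1.49 and 1.98 CPM in monocytes, 17.5 and 18.7 in RLM, and 71.9 and 106 in Kupffer cells.

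Of 25 iron and heme regions 10 (40.0%) were higher, and of 72 scavenger receptor regions 13 (18.1%). Neither group had a lower call by edgeR or DESeq2, with 1 and 2 regions lower at an unadjusted p under 0.05. Of 58 regions of macrophage factor genes 14 were higher and 3 lower, the latter at Atf3, Klf2 and Klf4. NF-κB target genes had 10 of 34 higher, among them the Il10 promoter region with 1.24 and 1.49 CPM in monocytes, 5.78 and 5.69 in RLM, and 32.5 and 38.8 in Kupffer cells. The C3ar1 intron region, at a complement receptor gene, had 3.39 and 5.12 CPM in monocytes, 42.4 and 45.8 in RLM, and 74.0 and 109.5 in Kupffer cells. Of 17 Notch gene regions 3 were higher, at Hes1, Hey1 and Notch4. Interferon genes had 20 tested regions with no call in either direction by edgeR or DESeq2, 1 being higher at an unadjusted p under 0.05, and monocyte genes 1 of 12 (8.33%) higher, near the share over all regions, and 2 lower.

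DLL4 asks whether a Notch ligand moves the mark at the same places in cultured macrophages. A Kupffer-only region was matched to a BMDM region where they shared at least 1000 bp, which 9239 (63.7%) did, against 76.8% of RLM-only, 72.6% of monocyte-only and 98.8% of regions of all 3 cell types. Of the matched regions 1820 (19.7%) were listed only with DLL4 and 792 (8.57%) only without it. Among all matched regions these shares were 8.62% only with DLL4 and 5.37% only without it. They were 16.3% and 9.80% in RLM-only regions, and 15.2% and 13.8% in monocyte-only regions. Of the 7727 matched BMDM regions with enough tags, DLL4 was higher in 560 (7.25%; 4.89% over all BMDM regions tested) and lower in 117 (1.51%; 2.64% over all), by the same edgeR test. Regions shared by RLM and Kupffer cells had 9.62% higher and 1.10% lower, and RLM-only regions 4.99% and 1.90%.

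Hes1, the textbook Notch target, showed the change in both settings. Its Kupffer-only region at -2095 bp from the start had 1.46 and 1.45 CPM in untreated BMDM and 10.5 and 13.2 with DLL4, a log2 rise of 3.02 ± 0.25 (adjusted p = 7.41e-12). The same region had 2.73 and 7.68 CPM in monocytes, 54.5 and 47.6 in RLM, and 43.9 and 38.4 in Kupffer cells, and rose in RLM by 3.29 ± 0.28 (adjusted p = 1.07e-14). The RLM libraries were here the highest of the 6. It was the only Notch gene region of 5 tested that passed with DLL4.

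The promoters printed above included both outcomes. Tmem37 had 16.8 and 13.4 CPM in untreated BMDM and 43.6 and 47.8 with DLL4 (log2 fold 1.61 ± 0.11, adjusted p = 4.65e-14). Il18bp had 12.7 and 14.5 CPM untreated and 28.8 and 27.1 with DLL4 (log2 fold 1.03 ± 0.12, adjusted p = 3.17e-08). Kctd6 had 5.73 and 7.35 CPM untreated and 7.67 and 7.94 with DLL4 (log2 fold 0.25 ± 0.21, adjusted p = 0.463) and did not pass. The Cd5l promoter region had 1.41 and 2.10 CPM untreated and 2.74 and 1.85 with DLL4 (log2 fold 0.38 ± 0.40, adjusted p = 0.586), and the libraries overlapped.

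Iron genes had the largest share of DLL4 gains among groups with more than 10 tested regions, with 8 of 18 higher, at Hfe, Ncoa4, Slc40a1 and Spic. The Slc40a1 region had 23.2 and 27.6 CPM untreated and 81.9 and 75.7 with DLL4 (log2 fold 1.63 ± 0.08, adjusted p = 6.98e-17). At Ncoa4, the gene of the ferritinophagy receptor, it was 46.1 and 47.2 CPM untreated and 97.8 and 95.4 with DLL4 (log2 fold 1.05 ± 0.07, adjusted p = 3.61e-14). All DLL4 libraries stood above the untreated ones at both genes. Beside the 4.89% higher and 2.64% lower over all BMDM regions tested, Kupffer cell identity genes had 15 of 49 tested regions (30.6%) higher and 2 lower, the latter at Fabp7 and Marco, and LXR target genes 4 of 27 higher, at Abca1 and Rnf145. Abca1 had 12.9 and 10.4 CPM untreated and 32.5 and 28.8 with DLL4 (log2 fold 1.41 ± 0.13, adjusted p = 7.88e-11).

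TGF-β and BMP genes had 4 of 23 higher, at Ctgf, Hpgd, Smad7 and Tgfbr1. The intron region of Hpgd, which encodes the prostaglandin-degrading dehydrogenase, had 4.08 and 4.13 CPM untreated and 10.9 and 9.80 with DLL4 (log2 fold 1.33 ± 0.21, adjusted p = 6.07e-06), while RLM did not differ from monocytes there by the test (log2 fold 0.08 ± 0.34, adjusted p = 0.903). Class II genes had 3 of 5 higher, at Cd74 and Ciita. Ciita, the class II transactivator gene, had 1.36 and 1.48 CPM untreated and 6.00 and 5.18 with DLL4 (log2 fold 1.97 ± 0.32, adjusted p = 9.9e-06). Scavenger receptor genes had none of 28 higher by edgeR or DESeq2, 7 being higher at an unadjusted p under 0.05, and 1 lower, at Marco, and NF-κB target genes 1 of 20 (5.00%) higher, which is the share over all BMDM regions.

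The largest DLL4 gains lay in regions that were low in untreated BMDM. Near Apol10b, an apolipoprotein L gene, H3K27ac was 0.292 and 0.0362 CPM untreated and 9.76 and 9.51 with DLL4 (adjusted p = 1.56e-13), and near Fam50b it was 0.535 and 0.796 CPM untreated and 16.9 and 16.0 with DLL4 (log2 fold 4.58 ± 0.25, adjusted p = 3.32e-16). Another Itga9 region, 48508 bp inside the gene, had 0.146 and 0.398 CPM untreated and 4.79 and 5.18 with DLL4 (log2 fold 4.10 ± 0.45, adjusted p = 7.36e-09; 5.05 without the second untreated library), and 24.0 and 23.0 CPM in Kupffer cells. Near Slco3a1 the mark was at 0 in both untreated libraries and at 0.558 and 1.09 CPM with DLL4. The regions with the largest falls, near Xkrx, Adamts1, Bbs9, Cep350, Epgn and Cdkn3, all had under 2 CPM in each untreated library, and each lost its call under at least 1 alternative setting.

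The 6 libraries of the table of monocytes, RLM and Kupffer cells held 7.37 to 19.5 M tags in regions, the most in the second Kupffer cell library, the 4 BMDM libraries 20.2 to 27.2 M, and the factor libraries 11.1 to 56.3 M tags in all. Scaling by total tags in place of TMM moved the median log2 fold of all regions by -0.14 for Kupffer cells against RLM and by -0.11 against monocytes, and by less than 0.1 in the other contrasts.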

How the data were processed

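ChIP-seq libraries of H3K27ac, LXR, SMAD4 and RBPJ were analysed from the tables the authors deposited. Per the file headers, the 2 H3K27ac tables hold raw tag counts per merged region in 6 and 4 libraries, with the lists, the annotation and the nearest gene of each region. The factor peak lists were called by the authors per library against an input, per the file headers, and give each peak a signal in tags per 10000000 and a fold over input (a ratio). Bowtie2, HOMER and mm10 come from the submitters' processing notes; versions and settings are not given in the sources used here. The 12 input libraries were not analysed here.

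Regions whose list entry names Kupffer cells only were kept, with no change to their bounds. Counts of all regions were fitted with edgeR 4.0.16 (R 4.3.3; TMM, filterByExpr, robust quasi-likelihood fit and test, all groups of a table sharing one dispersion) and p-values were adjusted by Benjamini-Hochberg over all tested regions. A region was called at an adjusted p under 0.05 and a fold of at least 2. The SE of a log2 fold was taken as its absolute value over the square root of the quasi-likelihood F statistic. A factor was counted in a region where the 2000 bp held a deposited peak's centre, and a BMDM region was matched at an overlap of at least 1000 bp. The fit was tested on simulated data. DESeq2 1.42.0 served as an alternative; tables and figures used Python 3.11.15, pandas 2.3.3, scipy 1.17.1 and matplotlib 3.10.9.

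Named regions were the 12 with the highest Kupffer cell level, the 10 highest holding all 3 factors, up to 6 per direction with the largest called folds, the 10 genes with the most regions, up to 4 genes per gene list, the 8 highest promoters, 4 regions at each edge and, chosen after their values were seen, regions at the cell type markers, passing over predicted symbols and chromosome 18; of these the text gives a selection. Regions, gene lists and markers were chosen with earlier results of these data known.

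Promoter windows came from RefSeq (GRCm38.p6), with 655 of the 963 promoter-annotated regions holding a window of their gene. Samples shared only a replicate number between groups.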

Additional observations from a re-analysis of the deposited data

How the results depend on the processing

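No result reversed under the alternatives run, named regions included. Of the checks on the main results 91 were marked the same and 44 as moved. Of the values of single regions 186 kept their call and 28 lost it. A replicate block gave 11.3% higher and 2.31% lower for RLM against monocytes, beside 8.30% and 8.92% over all regions. For DLL4 it gave 7.42% and 1.58%, beside 4.99% and 2.78%. Deviations of same-numbered libraries correlated at -0.01, 0.04, -0.02 and 0.02, so no pairing was used. Leaving out 1 library gave 8.11% to 12.2% higher and 2.02% to 3.02% lower for RLM against monocytes, 35.1% to 45.5% and 1.05% to 3.91% for Kupffer cells against RLM, 43.3% to 51.8% and 1.74% to 2.73% against monocytes, and 6.15% to 7.49% and 1.26% to 1.75% for DLL4. Without the second monocyte library all regions stood at 6.88% higher. DESeq2 called 1.53% (219 against 476) lower against RLM and 1.80% (258 against 381) against monocytes, beside 9.04% and 14.1% over all regions. It lost 6 of 12 named DLL4 regions. Isolated regions gave 7.91% higher and 0.692% lower in RLM, beside 5.43% and 5.97% of all isolated regions. Factor shares follow as either library, a fold over input of at least 8, a centre within 500 bp, isolated regions, and the range of single libraries. For LXR in Kupffer cells they were 68.6%, 30.2%, 30.6%, 29.4% and 47.9% to 61.4%, and in BMDM 35.8%, 11.6%, 12.4%, 10.5% and 23.6% to 30.9%. For SMAD4 in Kupffer cells they were 54.3%, 24.6%, 18.1%, 13.8% and 31.6% to 49.4%, and in BMDM 27.5%, 7.73%, 6.97%, 4.84% and 17.4% to 22.3%. For RBPJ in Kupffer cells they were 21.1%, 0.524%, 3.48%, 2.67% and 12.0% to 15.1%, and in BMDM 54.7%, 25.7%, 30.7%, 30.5% and 47.4% to 48.1%, with 41.8% at any overlap. Promoters were 12.1% within 1 kb, 19.8% within 3 kb and 3.31% of isolated regions. Regions listed in BMDM were 70.5% at 1 bp and 55.7% at 1500 bp of overlap. The cause of these moves was not tested. Of the 12 factor libraries, peak number and depth differ between cell types, and depth limits the weakest regions, where 2319 had under 1 CPM in Kupffer cells.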
